A study of Mus musculus with 10 samples.

Results

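The genes examined here are Psmb8, Psmb9, Psmb10, Psme1, Psme2, Tap1 and Tap2, which make the immunoproteasome and the peptide transporter of MHC class I antigen presentation. They were taken by name, each with 5 kb of sequence on either side of its GENCODE M21 gene body in the mouse build mm10. The peak calls of all lists, where their q-value was at most 0.01, were merged into 204075 regions over the genome, and 13 of these overlapped the windows of the 7 genes. Of the 13 regions, 7 lay within 1 kb of a start site of one of the genes, 2 lay in introns of Tap2, 1 lay at the start site of the neighbour Emc9, and 3 lay in the flanking sequence.

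Chromatin accessibility was measured by ATAC-seq, in which a transposase cuts and tags DNA that is not covered by nucleosomes. The cells were Myc-CaP, a male prostate cancer line of FVB/NJ background from a tumour driven by a Myc transgene under a prostate-specific promoter, and every sample shares that transgene and its origin from 1 line. The 10 libraries form 5 groups of 2, all taken at 48 h. Ctrl cells had no agent. Oxaliplatin (Oxali) and cisplatin (Cispl), both DNA-binding platinum drugs, were used at 2 µM. The cytokine interferon-γ (IFNγ) is labelled 1000 pg without a volume, and the last group, Oxali + IFNγ, had both of those agents at the same amounts. The authors pooled both libraries of a group before calling peaks, so each group is 1 list with no replicates, and no test of a treatment could be made.

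The proteasome cuts cytosolic proteins into peptides. Under IFNγ, cells are known to replace its constitutive catalytic subunits with Psmb8, Psmb9 and Psmb10, and to cap it with the Psme1 and Psme2 activator, which changes the peptides released. Tap1 and Tap2 form the pump that carries these peptides into the endoplasmic reticulum, where they are loaded onto class I molecules. Psmb9 and Tap1 are transcribed in opposite directions from a shared promoter inside the class II region of the major histocompatibility complex, with Psmb8 and Tap2 next to them. Known DNA elements of interferon-induced genes are the GAS and the ISRE.

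The DNA of these start sites was read from the mm10 reference, and one short string recurred in it. The ISRE was searched as GAAANNGAA on both strands. It lay in 6 of the 7 start-site regions against 18.9% of all start-site regions, or 28.2% of those in the same range of lengths. Within 150 bp of the top summit it lay in 2 of the 7, against 7.40% of all. Its commonest match at the genes was GAAAGCGAA. This string was singled out after the matches were seen. Because it was picked from these genes, its own share is a description only. It lay in the same 6 regions, all but the small one at the Tap2 start itself, against 0.599% of all 25697 start-site regions. Among the 12260 start-site regions between 765 and 2064 bp long, the range of the 7, the share was 1.05%. The sites are shown because they are the feature the genes share; capitals mark the string, 5′ to 3′ on the strand named, and each match is followed by the letters ag.
Psme1 exon 1 (chr14:55578495-55578521, minus strand): gcgggaaggGAAAGCGAAagcacagct
Psme2 exon 1 (chr14:55590929-55590955, minus strand): ctggagagtGAAAGCGAAagctggggc
Psmb9 and Tap1 (chr17:34186986-34187012, plus strand): gtctagagtGAAAGCGAAagcgctttg
Psmb8 exon 1 (chr17:34198337-34198363, minus strand): caaggaagtGAAAGCGAAagccacagt
Tap2 exon 1 (chr17:34204492-34204518, plus strand): cagtgaagtGAAAGCGAAagccgcggg
Psmb10 exon 1 (chr8:105938111-105938137, minus strand): ggtgggggtGAAAGCGAAagtaggaag
The Psmb9 and Tap1 string lay in Psmb9 intron 1 and the other 5 lay in the first exon of their gene. A match is a description of the letters and not of a bound factor.

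Levels are given throughout as a multiple of the genome background. Each deposited peak carries its fold over background and its −log10 p, from which the whole-number pileup at the summit (the number of read ends within 75 bp) could be recovered for 100% of peaks in every list. The level is that pileup divided by the list's own genome-wide background, which follows its depth. Values for the 5 lists stand in a fixed order below, namely Ctrl, then Oxali, then Cispl, then IFNγ, then the combination of Oxali + IFNγ; values for the 4 treated lists follow the same order without Ctrl. The backgrounds were 12.1, 11.3, 13.8, 9.62 and 12.9, so the treated lists had 92.9%, 113%, 79.3% and 106% of the Ctrl depth. A summit in the genome background needed a pileup of at least 18 in IFNγ and 27 in Cispl to be listed. The 95% intervals of ratios are exact intervals for counting error between pooled lists and say nothing of the spread between cultures. Start regions of the prostate and epithelial genes Krt8, Hoxb13 and Foxa1 were present in all 5 lists, Epcam and Krt18 reached a level of at most 4.08 where listed, and of 6 markers of other cells 4 had none, namely the leukocyte genes Ptprc and Cd3e, the endothelial gene Cdh5 and the mural gene Pdgfrb. The endothelial gene Pecam1 was listed weakly in Ctrl (2.39), Cispl (2.98) and Oxali + IFNγ (2.71), and the fibroblast gene Col1a1 throughout at 28.4 to 49.9. Their part in the results was not tested.

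All 7 genes were already accessible at a start site in untreated cells. Ctrl had all 13 regions called, Cispl had 11, and the other treated lists had 12 each. Of the 204075 regions of the genome, 52.7%, 70.4%, 79.1%, 50.3% and 79.4% were called in the 5 lists. A region 150 bp long before Psme1, at chr14:55573036-55573185, was called only in Ctrl, with a pileup of 34 and a level of 2.80. The only other absence was the small region at the Tap2 start in Cispl, where a summit of pileup 50 was listed below the q-value limit.

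Gained intervals were those called under a treatment with no listed Ctrl interval at the same place, and lost intervals the mirror case. In the gene windows, 2 of 15, 1 of 12, 2 of 15 and 0 of 12 intervals of the treated lists were gained, against 32.5%, 37.3%, 12.9% and 38.4% of all intervals over the genome. Of the 14 Ctrl intervals in the windows, 1, 2, 1 and 1 were lost, against genome shares of 9.11%, 5.9%, 15.8% and 7.59%. The gained intervals lay at 2 places only, the first exon of Psmb8 and exon 3 of Rnf31 beyond the Psme2 start. Where such sequence joined a neighbouring call into 1 interval, as at Psmb8 in Cispl and in the combination, it does not count as gained.

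At start sites the levels of the 7 genes, as a set, lay below Ctrl in every treated list when scaled by the genome background, as did the medians of all start sites, and above Ctrl when scaled by the median ratio of start sites. The median level ratio of the 7 regions to Ctrl was 0.818, 0.784, 0.769 and 0.775. The medians over all start-site regions were 0.819, 0.732, 0.733 and 0.679. Pileups scaled by the median ratio of start-site regions instead, which takes that common shift out, gave the 7 genes' regions medians of 1.02, 1.10, 1.06 and 1.19, so the direction of the family as a whole depends on the scaling. Under that scaling the medians over all start-site regions also lay slightly above Ctrl. As log2 of the ratio they were 0.027, 0.040, 0.0093 and 0.057. All ratios to Ctrl share the same Ctrl list.

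Counted at a 1.5-fold difference, 0, 0, 0 and 1 of 7 start-site regions were higher than Ctrl in the treated lists. The shares of all start-site regions that were higher were 12.2%, 10.5%, 1.36% and 12.8%. Lower by 1.5-fold were 2 of 7, 2 of 7, 1 of 7 and 3 of 7, against 21.9%, 39.3%, 33.4% and 48.6% of all start-site regions. The lower ones were Psme2 and the Psmb9 and Tap1 promoter in each list with a platinum drug, and Psmb10 in both lists with IFNγ. Under the median scaling 1, 1, 2 and 2 regions were higher, against 20.8%, 24.0%, 8.5% and 29.1% of all start-site regions, and 0, 0, 0 and 1 were lower, against 2.31%, 2.87%, 3.23% and 14.3%. Psmb8 was then the higher region in every treated list, joined by the Tap2 start in both lists with IFNγ, and Psme2 the lower one. The plot of level ratios by region shows the values scaled by the genome background.

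**Figure D1:**
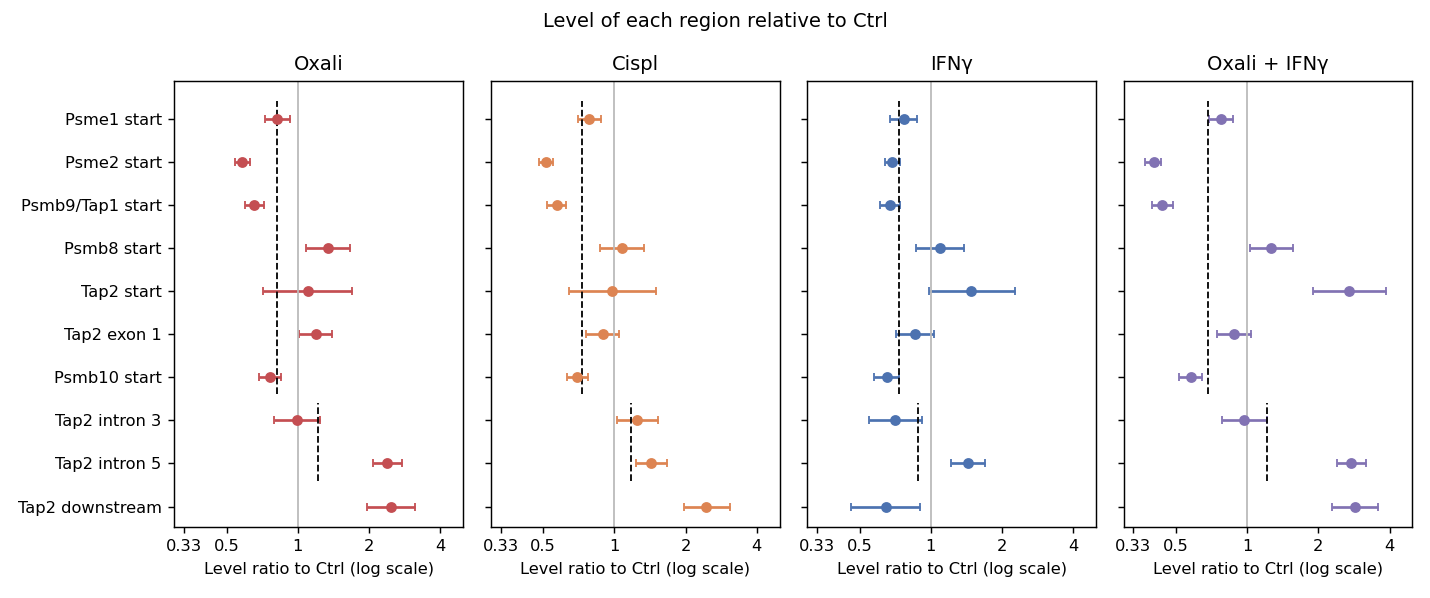
Level ratio to Ctrl (log axis) for the 7 start-site regions, the 2 Tap2 intron regions and the region downstream of Tap2, 1 panel per treatment. Points are pooled lists, bars are 95% intervals for counting error, and dashed lines are the medians over all start-site or all intronic regions; Tap2 intron 5 at 2.39 and 2.76 and the downstream region at 2.47 and 2.86 lie to the right with Oxali and Oxali + IFNγ.

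The shared promoter of Psmb9, a catalytic subunit, and Tap1, a chain of the peptide pump, lay in a region at chr17:34186915-34188453. Its pileups over the lists were 1189, 723, 769, 632 and 553, at a summit 129 bp before the Tap1 start. The level was thus highest in Ctrl and lowest in the combination. The ratios to Ctrl, each with its 95% interval, were 0.655 (0.596 to 0.719), 0.570 (0.520 to 0.625), 0.671 (0.608 to 0.739) and 0.437 (0.395 to 0.484). Under the median scaling these ratios were 0.815, 0.801, 0.921 and 0.670, lower than 1 in each case. Start-site regions of like Ctrl pileup, within 1.5-fold of it, had median ratios of 0.714, 0.625, 0.673 and 0.523, and relative to those the promoter stood at 0.917, 0.913, 0.997 and 0.836, with 71.2%, 73.1%, 51.0% and 77.2% of those regions at least as high. On the scale-free measure of rank among the 85375 regions listed in all lists, the region stood at percentile 92.4 in Ctrl and at 83.6 in Oxali + IFNγ.

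The summit 22 bp inside Psmb9, in exon 1 of both genes, had levels of 55.2, 46.1, 43.0, 42.3 and 37.5. It too was highest in Ctrl and lowest in the combination. The outer summits of the region had other values. The summit 446 bp before the Tap1 start, 108 bp from the ISRE string, had levels of 10.9, 11.2, 10.3, 10.4 and 15.0. On this scale only Oxali + IFNγ stood apart there. Under the median scaling all 4 treated lists lay above Ctrl at that summit, at 1.28, 1.33, 1.31 and 2.12. The summit in exon 1 of Tap1, at chr17 position 34188147, had levels of 9.56 in Ctrl and 14.5, 15.3, 13.5 and 13.8 in the 4 treated lists, all higher than Ctrl. The bases called in the region numbered 1343 in Ctrl and 1456, 1528, 1425 and 1539 in the treated lists.

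Psme2 encodes one subunit of the proteasome activator, and its start region at chr14:55590597-55592565 also holds the start of Rnf31, a ubiquitin ligase subunit on the opposite strand. At the summit 23 bp before the Psme2 start the pileups were 1821, 1033, 1143, 998 and 857. The higher summit 642 bp before that start, in exon 1 of Rnf31, had 2158, 1164, 1258, 1175 and 921. Both summits were highest in Ctrl and lowest in Oxali + IFNγ, and which of the genes the opening serves cannot be told apart.

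For the Psme2 region the ratios to Ctrl were 0.581 (0.540 to 0.624), 0.514 (0.479 to 0.551), 0.687 (0.639 to 0.738) and 0.401 (0.371 to 0.434). Under the median scaling they were 0.723, 0.722, 0.944 and 0.615, and with the deposited fold 0.851, 0.782, 0.919 and 0.750. Relative to start-site regions of like Ctrl pileup they were 0.881, 0.910, 1.06 and 0.871, so the IFNγ value lay above 1 on that measure. By rank the region stayed among the strongest, at percentile 98.5 in Ctrl, 98.6 in IFNγ and 95.1 in Oxali + IFNγ. A further summit in exon 3 of Rnf31, at chr14 position 55592472, was listed only with the platinum drugs, at levels of 15.2 (Oxali), 18.5 (Cispl) and 13.4 (combination). The local background at the region's top summit was a pileup of 158 in Ctrl and 99.8 in Oxali, where the listed pileup was 171, so the absence of a Ctrl summit does not show that the site was closed, and the gained intervals there rest on it.

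Psme1 encodes the other activator subunit. Its start region at chr14:55577849-55579164 had pileups of 632, 480, 562, 385 and 521. The 4 treated lists lay close together, with ratios to Ctrl of 0.818 (0.725 to 0.922), 0.784 (0.699 to 0.880), 0.769 (0.675 to 0.874) and 0.775 (0.689 to 0.872). Under the median scaling they were 1.02, 1.10, 1.06 and 1.19. Relative to start-site regions of like Ctrl pileup they were 0.991, 1.08, 1.04 and 1.16. In the combination the Psme1 level was 40.4 against 52.1 in Ctrl, and that of the Psme2 region was 71.4 against 178 in Ctrl.

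Psmb10, the third inducible catalytic subunit, had a region at chr8:105936524-105938587 that covers the start and much of the gene, and its highest summit lay in intron 4, 1366 bp inside the gene. The pileups there were 830, 585, 657, 428 and 509, again with Ctrl the highest. The ratios to Ctrl were 0.759 (0.682 to 0.845), 0.698 (0.629 to 0.774), 0.651 (0.578 to 0.732) and 0.577 (0.516 to 0.645). Under the median scaling they were 0.944, 0.981, 0.894 and 0.883, and relative to start-site regions of like Ctrl pileup 0.985, 1.03, 0.930 and 0.983.

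Nearer the Psmb10 start the order differed. In exon 1, 18 bp from the ISRE string, the pileups were 188, 220, 317, 155 and 289, giving levels of 15.5, 19.5, 23.0, 16.1 and 22.4. On this scale the platinum lists were the high ones at this summit and IFNγ alone was close to Ctrl. Under the median scaling the summit's ratios to Ctrl were 1.57, 2.09, 1.43 and 2.21, so IFNγ was then above Ctrl too. A summit 20 bp before the start was listed only in the 3 lists with a platinum drug, at levels of 15.2, 14.1 and 13.9. In Ctrl and IFNγ no separate summit was listed there, which does not show that the site was closed, since MACS2 splits a peak only where the profile dips.

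Psmb8, the inducible catalytic subunit that replaces the chymotrypsin-like one, was open in every list and was called over more bases in the treated lists. Its start region at chr17:34197319-34198466 had pileups of 161, 200, 197, 140 and 216 at the summit 91 bp before the GENCODE start. Those levels, 13.3 in Ctrl and 14.3 to 17.7 in the treated lists, gave ratios of 1.34 (1.08 to 1.66), 1.08 (0.872 to 1.34), 1.10 (0.868 to 1.38) and 1.26 (1.02 to 1.56). None reached 1.5-fold on this scale. The median scaling gave 1.66, 1.52, 1.51 and 1.93, all past 1.5-fold, while the deposited fold gave 1.08, 0.963, 0.889 and 0.843, below 1 in all lists but Oxali. The direction at the main Psmb8 summit thus depends on the scale. Relative to start-site regions of like Ctrl pileup the values were 1.19, 1.01, 1.31 and 1.18.

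The called sequence at Psmb8 measured 553, 1087, 1125, 887 and 1145 bp. Over the 16599 start-site regions called in all lists the medians were 997, 1062, 1119, 1039 and 1106 bp. Ctrl was thus narrower than the median and the treated lists, apart from IFNγ, were above it. The added sequence lay mainly in the first exon, where Ctrl had no listed interval. At 287 bp into the gene the pileups of the treated lists were 50, 55, 37 and 84.

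The outer summit, 541 bp into the exon and 19 bp from the ISRE string, had pileups of 66, 75, 37 and 127 in the treated lists. The levels were 5.86, 5.45, 3.85 and 9.84, so the combination was the highest list and IFNγ alone the lowest. No ratio to Ctrl can be given where Ctrl has no summit. A pileup of 21 in the genome background was enough for a Ctrl summit to be listed. RefSeq places the Psmb8 start 405 bp inside the GENCODE one, at chr17 position 34198195, between the exon 1 summits.

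The sequence under the main Psmb8 summit is shown because it is the part that was open in every list. It ends where the earliest annotated transcript begins, and capitals mark its GC box, the letters GGGCGG on the minus strand. None of the ISRE, GAS (TTCNNNGAA) or AP-1 (TGANTCA) searches, nor those for NF-κB and CTCF, matched within these 300 bases. One GAS match lay just beyond it and a GC box was within 150 bp of the top summit in 37.6% of all start-site regions.
Psmb8 upstream (chr17:34197421-34197720, plus strand): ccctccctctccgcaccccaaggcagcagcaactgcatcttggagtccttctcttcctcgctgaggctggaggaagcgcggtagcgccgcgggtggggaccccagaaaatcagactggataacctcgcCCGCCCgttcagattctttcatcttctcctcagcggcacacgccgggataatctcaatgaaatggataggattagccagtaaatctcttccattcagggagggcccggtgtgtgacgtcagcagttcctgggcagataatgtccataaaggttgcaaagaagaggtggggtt
A GAS match, shown with 9 bases on each side, followed at the transcript's first bases.
Psmb8 GAS (chr17:34197717-34197743, plus strand): ggttgaggaTTCAAGGAAggagcgcgc

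**Figure D2:**
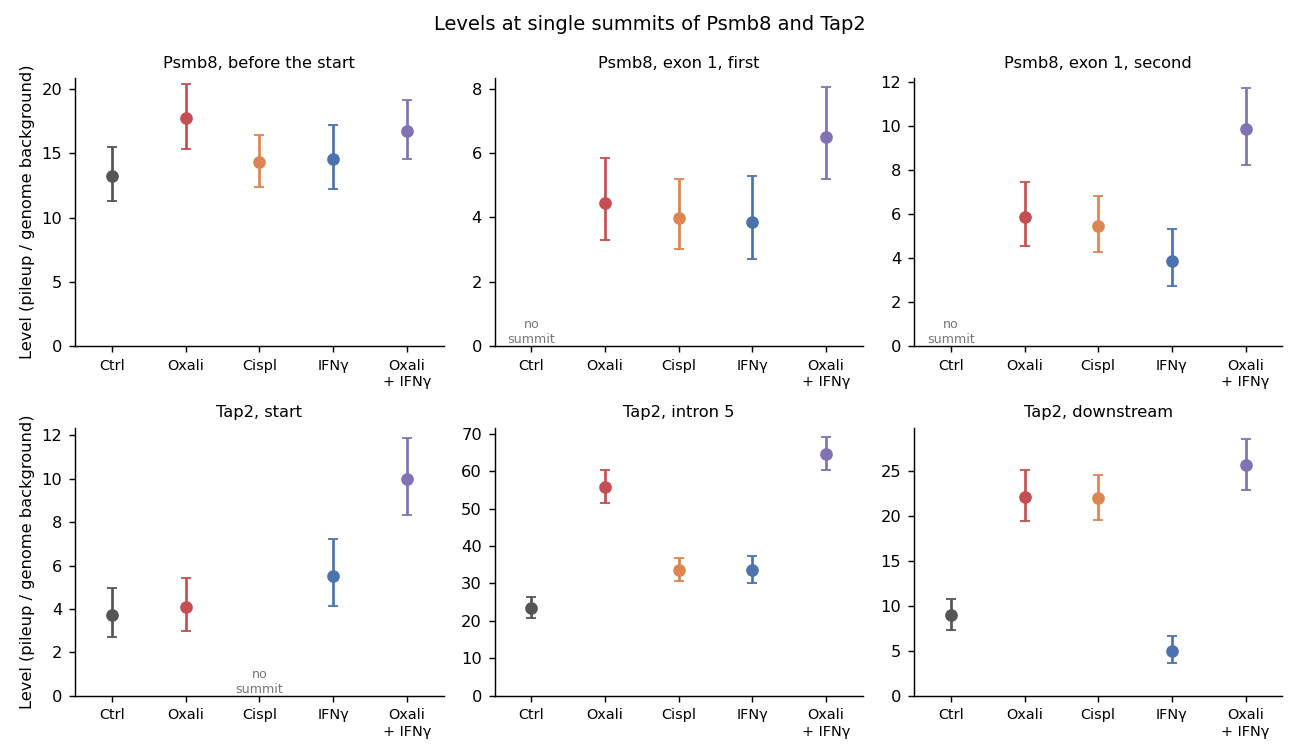
Level (pileup divided by genome background, linear axis from 0) at 6 summits of Psmb8 and Tap2 in each of the 5 lists. Points are pooled lists with 95% Poisson intervals for counting error, and lists with no summit at that place are marked; the exon 1 summits of Psmb8 are missing in Ctrl and the Tap2 start is highest, at 10.0, in Oxali + IFNγ.

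Tap2, the other chain of the pump, had a weak region over its annotated start. Among regions at the start sites and in the gene bodies, it held the largest ratios above 1. The small region over its annotated start, chr17:34203032-34203796, had a summit 40 bp into the gene with a pileup of 45 in Ctrl, 46 in Oxali, 53 in IFNγ and 129 in the combination. Cispl had no summit at that spot, and its pileup of 50 lay 182 bp before the start. On this scale Oxali + IFNγ was the highest list.

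The Tap2 start ratio to Ctrl was 1.10 (0.714 to 1.70) for Oxali, 1.49 (0.980 to 2.26) for IFNγ and 2.70 (1.91 to 3.88) for the combination. The combination was 2.45 (1.74 to 3.51) times Oxali and 1.81 (1.31 to 2.55) times IFNγ. Start-site regions of like pileup in the single-agent list had medians of 1.05 and 1.48 for these ratios. Relative to those the Tap2 start was at 2.33 and 1.23, with 0.0686% and 32.6% of them at least as high. The combination's ratio to Ctrl was 1.65 times the product of the single-agent ratios, with a counting interval of 0.979 to 2.77 that includes 1. Over all start-site regions the median of that quantity was 1.09, with quartiles of 0.982 and 1.23. By rank the region stood at percentiles 11.5, 6.70, 4.05, 30.0 and 34.4. Start-site regions of like Ctrl pileup were themselves higher in the combination, with a median ratio of 1.47, and relative to those the Tap2 start was at 1.83. The combination's ratio to Ctrl was 2.09 with the deposited fold and 4.13 with the median scaling, and that of IFNγ was 1.43 and 2.04.

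The called sequence at this start was 150 bp in Ctrl, 298 bp in Oxali, 197 bp in IFNγ and 765 bp in the combination. Its upstream bases are shown because the extra width in the combination lies over them, with capitals for the AP-1 match and for the GC box on the minus strand. AP-1 matches lay within 150 bp of the top summit in 13.7% of start-site regions. No ISRE, GAS, NF-κB or CTCF match was found in these letters.
Tap2 upstream (chr17:34203227-34203526, plus strand): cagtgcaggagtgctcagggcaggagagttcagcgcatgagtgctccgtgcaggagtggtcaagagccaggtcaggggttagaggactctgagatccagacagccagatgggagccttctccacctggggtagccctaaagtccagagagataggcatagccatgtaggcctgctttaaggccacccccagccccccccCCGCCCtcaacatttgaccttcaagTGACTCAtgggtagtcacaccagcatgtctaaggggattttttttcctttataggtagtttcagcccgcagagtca

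A second Tap2 start region, chr17:34204345-34205168, had its summit 975 bp into the gene in exon 1, directly over the ISRE string. The pileups were 297, 328, 300, 202 and 278. The ratios to Ctrl were 1.19 (1.01 to 1.40), 0.891 (0.756 to 1.05), 0.858 (0.714 to 1.03) and 0.880 (0.745 to 1.04), so only Oxali was above Ctrl beyond counting error. With the median scaling all 4 lay above 1, at 1.48, 1.25, 1.18 and 1.35. The same window held a match to CTCF, a factor that holds chromatin loops, found near 2.47% of start-site summits, and its letters are shown with capitals for the match.
Tap2 CTCF (chr17:34204444-34204473, minus strand): gcacagccgCCAGCAGATGGCgcctgtcaa

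The largest ratio to Ctrl within a gene body lay inside Tap2. The region of intron 5, chr17:34210317-34211237, had its summit 7174 bp from the start, with pileups of 284, 630, 462, 323 and 833. The levels were 23.4, 55.9, 33.6, 33.6 and 64.5. Every treated list was above Ctrl, and Oxali and Oxali + IFNγ were well above the others. In the combination this intron was the highest summit of the 4 clustered genes, above the Psmb9 and Tap1 promoter at 42.9.

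Relative to Ctrl the intron 5 levels were 2.39 (2.07 to 2.76), 1.43 (1.24 to 1.67), 1.43 (1.22 to 1.69) and 2.76 (2.41 to 3.17). The medians of all intronic regions were 1.21, 1.17, 0.880 and 1.21. Of the genes' 2 intronic regions, 1, 0, 0 and 1 were higher by 1.5-fold, against 32.9%, 29.5%, 4.65% and 34.2% of all intronic regions. None of the 2 was lower by 1.5-fold, against 4.75%, 6.1%, 15.9% and 6.66%. Counts of 1 in 2 cannot be set apart from those shares.

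The size of the intron 5 difference depended on the scale and its direction did not. The deposited fold over the local background gave 1.44, 1.06, 1.16 and 1.46 and the median scaling gave 2.97, 2.02, 1.97 and 4.22. By rank the region stood at percentile 70.0 in Ctrl and at 86.2, 79.6, 80.5 and 93.2 in the treated lists. The rank needs no scaling, and it was higher in all 4 treated lists.

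The platinum drugs differ by their leaving and carrier groups, oxaliplatin holding a diaminocyclohexane where cisplatin holds ammines. At the same 2 µM and 48 h, the intron 5 level with Cispl was 0.601 (0.532 to 0.678) times that with Oxali. The median over all intronic regions for that pair was 0.957. Intronic regions of like Oxali pileup, within 1.5-fold of it, had a lower median of 0.752. Relative to those intron 5 stood at 0.798, with 86.1% of them at least as high. At the downstream region described next the ratio of Cispl to Oxali was 0.993 (0.837 to 1.18). At the 7 start-site regions it ran from 0.749 to 0.959, where the median over all start-site regions was 0.885. These are ratios of pooled lists with counting intervals only, so no test of a difference between the drugs was possible.

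Adding IFNγ to Oxali left intron 5 at 1.15 (1.04 to 1.28) times Oxali alone. Adding Oxali to IFNγ gave 1.92 (1.69 to 2.19) times IFNγ alone. Over all intronic regions the medians of these ratios were 1.02 and 1.36, with upper quartiles of 1.17 and 1.91. Intronic regions of like pileup in the single-agent list had medians of 0.946 and 1.14. Of those, 4.03% and 5.12% were at least as high as intron 5. The combination was 0.805 (0.666 to 0.973) times the product of the single-agent ratios, where all intronic regions had a median of 1.15 and quartiles of 0.951 and 1.40. The intron 5 value thus lay below the product beyond counting error, and the Tap2 start lay above it within counting error.

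The letters around the intron 5 summit are shown because the highest treated levels of the gene lay there. Capitals mark the 21 bases centred on the summit. None of the 6 motifs searched, ISRE, GAS, NF-κB, AP-1, GC box or CTCF, matched in the window, which says only that these letters are not there. Their shares over all intronic regions were 9.00%, 9.12%, 5.18%, 25.5%, 6.20% and 3.50%.
Tap2 intron 5 (chr17:34210551-34210850, plus strand): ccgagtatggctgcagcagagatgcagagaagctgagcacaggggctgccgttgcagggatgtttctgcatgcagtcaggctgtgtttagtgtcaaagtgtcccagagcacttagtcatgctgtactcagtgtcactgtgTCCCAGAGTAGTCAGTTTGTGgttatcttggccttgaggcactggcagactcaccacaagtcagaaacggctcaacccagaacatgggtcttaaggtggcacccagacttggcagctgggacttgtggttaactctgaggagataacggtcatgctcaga

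Intron 3 of Tap2 held the other intronic region, chr17:34205962-34206211. Its pileups were 171, 157, 242, 96 and 177. The ratios to Ctrl were 0.989 (0.791 to 1.24), 1.25 (1.02 to 1.53), 0.708 (0.546 to 0.915) and 0.974 (0.785 to 1.21). Cispl was the highest list at intron 3 and the combination at intron 5. The medians of both introns were 1.54, 1.34, 1.01 and 1.64, and with the deposited fold those of Oxali and the combination were 0.990 and 0.921, on the other side of 1. On that scale the ratio of intron 3 was 0.683 for Oxali and 0.580 for the combination.

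Beyond Tap2, 2181 bp past its annotated end, lay a region at chr17:34218502-34219410. The pileups at its main summit were 109, 250, 303, 48 and 331. The 3 lists with a platinum drug had levels of 22.0 to 25.6 there, while Ctrl stood at 8.98 and IFNγ alone was the lowest at 4.99. The region's ratios to Ctrl, on the highest summit of each list, were 2.47 (1.96 to 3.12), 2.45 (1.96 to 3.08), 0.648 (0.461 to 0.903) and 2.86 (2.29 to 3.58). Regions of the same class and like Ctrl pileup had median ratios of 1.21, 1.18, 0.849 and 1.22. Of those, 7.51%, 2.93%, 81.5% and 4.75% were at least as high.

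At that main summit the combination stood at 2.08 (1.43 to 3.04) times the product of the single-agent ratios. That value rests on the IFNγ pileup of 48 there, below the region's highest IFNγ pileup of 56. The quantity was not computed over all regions outside start sites and introns, so it has no comparison here. With the deposited fold the region's ratios to Ctrl were 1.95, 1.93, 0.641 and 2.01, and with the median scaling 3.07, 3.44, 0.891 and 4.37. The direction held on each scale. By rank it stood at percentiles 42.1, 63.8, 67.7, 32.1 and 69.2.

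Its letters are shown because they hold a GAS and an ISRE match that overlap, in capitals as 1 run, and a further GAS match in capitals 9 bases on. Within 150 bp of the top summit, GAS and ISRE matches were found in 10.0% and 9.84% of all intergenic regions. The level here was lowest with IFNγ alone, and a match does not show that a factor was bound.
Tap2 downstream (chr17:34218827-34219126, plus strand): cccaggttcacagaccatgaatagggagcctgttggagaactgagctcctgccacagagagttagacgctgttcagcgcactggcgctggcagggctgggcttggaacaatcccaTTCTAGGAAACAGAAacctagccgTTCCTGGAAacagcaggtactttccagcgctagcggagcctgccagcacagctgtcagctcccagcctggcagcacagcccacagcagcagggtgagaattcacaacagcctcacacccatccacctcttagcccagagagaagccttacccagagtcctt

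**Figure D3:**
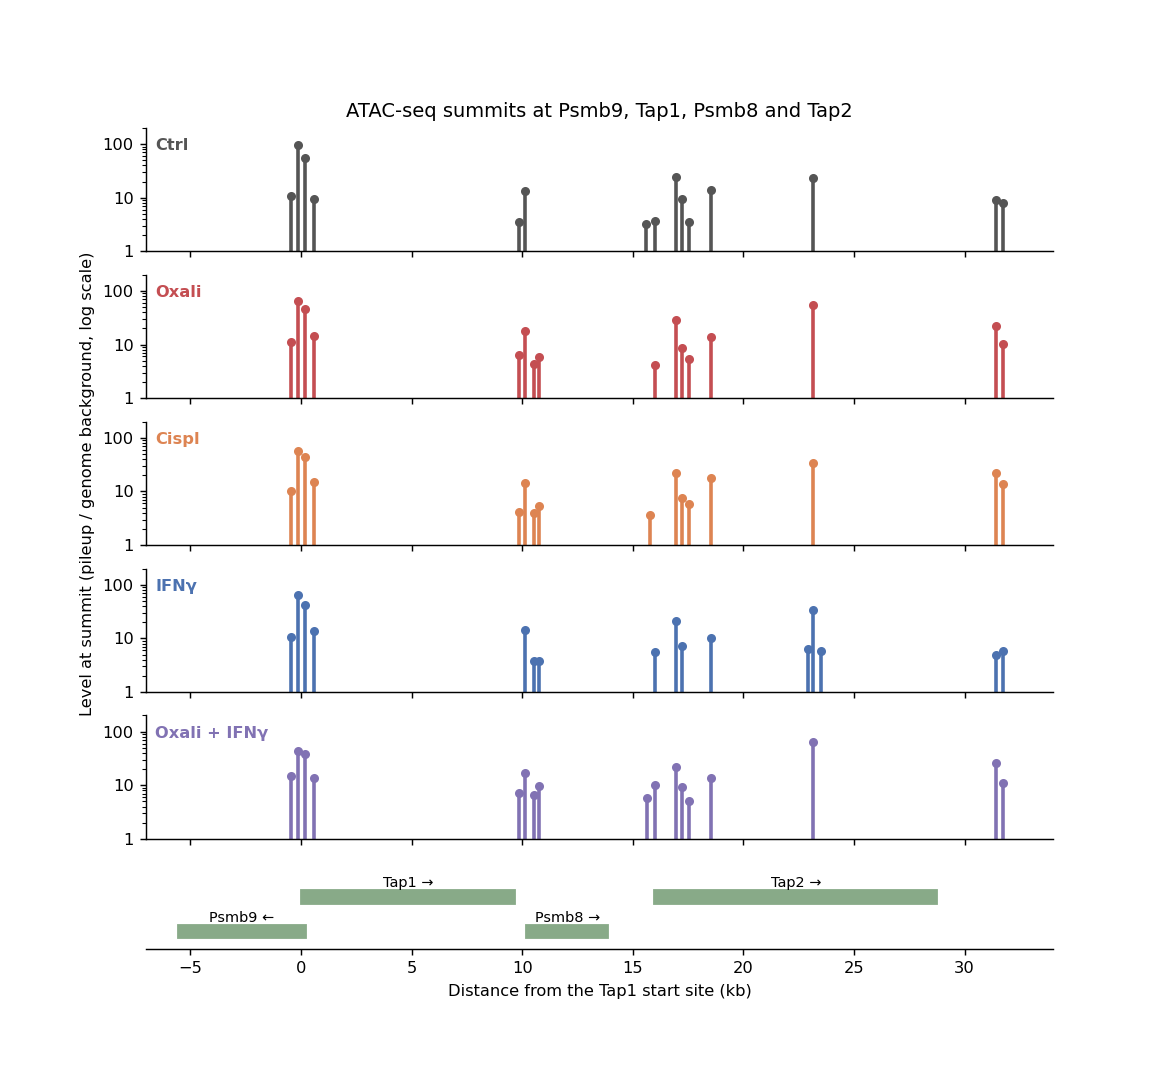
Level at each listed summit (log axis, pileup divided by genome background) against distance in kb from the Tap1 start site, 1 panel per list, with the gene bodies of Psmb9, Tap1, Psmb8 and Tap2 and their directions below. The tall summits at 0 kb are the Psmb9 and Tap1 promoter, 97.9 in Ctrl and 42.9 in Oxali + IFNγ, while Tap2 intron 5 stands at 23.4 and 64.5 in the same lists.

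The other regions in the windows belonged to neighbouring genes. The start of Emc9 between Psme1 and Psme2 had ratios to Ctrl of 0.800, 0.769, 0.739 and 0.698. A region in exon 3 of Pskh1, 4443 bp past the end of Psmb10, had 0.585, 0.569, 0.619 and 0.581. On this scale the latter was lower than Ctrl by a near equal ratio in every treated list. Under the median scaling its ratios were 0.728, 0.799, 0.850 and 0.889. Of regions of the same class and like Ctrl pileup, 99.3%, 98.1%, 90.3% and 95.9% were at least as high.

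Other genes of the pathway were given from named lists. The class I presentation list held B2m, H2-K1, H2-D1, Tapbp, Tapbpl, Erap1, Calr, Canx, Pdia3 and Nlrc5, and the strongest start region of each was used. Of these 10 genes, 4, 6, 1 and 5 were lower than Ctrl by 1.5-fold in the treated lists, where 21.9%, 39.3%, 33.4% and 48.6% of all start-site regions were. Of the same 10, 1 was higher by that amount, Tapbpl with Oxali + IFNγ, an editor of peptide loading, whose level was 29.2 against 17.4 in Ctrl, where 12.8% of all start-site regions were higher. The list's median ratios were 0.737, 0.641, 0.705 and 0.638.

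The constitutive counterparts, Psmb5, Psmb6 and Psmb7 of the standard proteasome core and Psme3 of the nuclear activator, had medians of 0.623, 0.593, 0.548 and 0.371. All 4 were lower by 1.5-fold with Oxali, Cispl and Oxali + IFNγ, and 3 of 4 with IFNγ, against the same shares of all start-site regions, and with 4 genes the counts are a description only. Psmb6 had the lowest ratio of the 4 in the combination, with a level of 43.4 in Ctrl and 11.5 in Oxali + IFNγ. Counted the same way, by the strongest start region of each gene, the 6 regions of the 7 immunoproteasome and transporter genes had medians of 0.788, 0.740, 0.727 and 0.669. All medians of both lists lay below 1 on this scale, and the all-region medians given above are the comparison. That comparison is not matched for strength. Start-site regions of like Ctrl pileup to the Psme2 region had medians of 0.659, 0.565, 0.647 and 0.461. Those like the Psmb8 region, a weaker one, had 1.13, 1.07, 0.839 and 1.07.

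**Figure D4:**
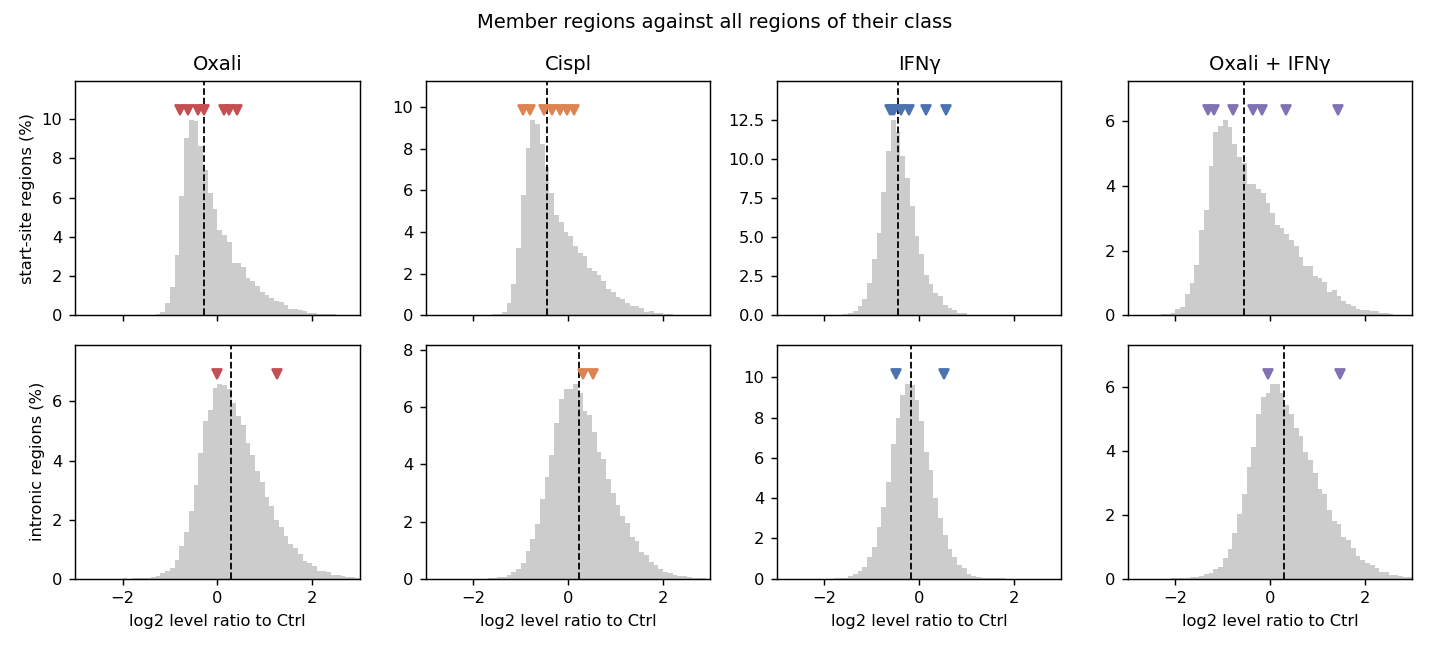
Distribution of the log2 level ratio to Ctrl over all start-site regions (top) and all intronic regions (bottom) as a percent of regions per bin, 1 column per treatment. Triangles are the 7 start-site and 2 intronic regions of the genes and dashed lines are the class medians; the start-site triangles spread across the histogram, with the Tap2 start far to the right at 1.43 with Oxali + IFNγ, and Tap2 intron 5 lies to the right of its class median with Oxali at 1.26 and Oxali + IFNγ at 1.46.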

How the data were processed

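ATAC-seq libraries of Myc-CaP cells were deposited as 5 peak lists, 1 per group of 2 libraries. Per the labels, reads were trimmed with cutadapt, aligned to mm10 with Bowtie2 2.2.8, filtered with SAMtools, and called with MACS2 2.1.0 by the authors, who pooled both libraries of a group first. The deposited fold over background is a ratio with MACS2's added count of 1, and the deposited −log10 p and −log10 q values come from a Poisson model. Fold and −log10 p together gave each summit's pileup and background. Chromosome lengths of the reference were compared with the lists before coordinates were used.

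Intervals with a q-value of at most 0.01 were merged across lists where they overlapped by 1 bp. A region is start-site within 1 kb of a start of a basic GENCODE M21 transcript, and intronic if its top summit lies in a gene outside exons. Its level in a list is the highest pileup among its intervals there, below the limit included, divided by the commonest background of that list. Summits within 60 bp were joined. The highest of several summits was taken, both ends of a fragment can count, and PCR copies were removed only by position, so counting intervals are too narrow. The Cispl list ends at −log10 p 2.99 and the others at 2, so weak Cispl summits are missing. The strand and build of sequences are those of GRCm38, and RefSeq starts (GRCm38.p6) were matched for 6 of 7 genes, Tap2 being absent from the table used.

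Named regions were all regions in the windows; the genes, lists and motifs were chosen with earlier results of these data known. With 1 pooled list per group no p-value was computed. Scripts ran in Python 3.11.15 with numpy 2.4.6, pandas 2.3.3, scipy 1.17.1 and matplotlib 3.10.9, and were tested on simulated lists. Alternatives covered the q-value limit, a common p-value limit, the window, the overlap, the scaling, the merging and the choice of start sites. A list of cytokine signalling genes and 1 marker gene are not reported here.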

Additional observations from a re-analysis of the deposited data

How the results depend on the processing

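No paired analysis was possible because both libraries of each group were pooled before peaks were called, and leaving out a replicate was not run for the same reason. Counts of 5 or fewer moved with small choices. With windows of 20 kb the called regions numbered 21 in Ctrl, 18 in IFNγ and 23 in each of Oxali, Cispl and Oxali + IFNγ. With those windows 5 Oxali, 5 Cispl and 3 Oxali + IFNγ intervals were gained and 3 were lost with IFNγ. With windows of 1 kb, 1 Oxali and 0 Cispl intervals were gained, and the lost ones numbered 0 except for 1 with Cispl. An overlap of at least 0.5 of the region gave 2 gained intervals each for Cispl and for Oxali + IFNγ. A q-value limit of 1e-05 left 1 lost with Cispl, and all deposited regions gave 2 lost each for Oxali and IFNγ. The lost and gained counts otherwise stayed within 1.5 times.

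The median ratio of the 7 start-site regions was 1.02, 1.1, 1.06 and 1.19 for Oxali, Cispl, IFNγ and Oxali + IFNγ under the median scaling. Relative to start-site regions of like Ctrl pileup, a choice added after the data were seen, it was 0.985, 0.975, 1.04 and 0.983. The deposited fold gave 0.884 for IFNγ, and start windows of 500 bp, which drop 1 Tap2 region, gave 0.669 for Oxali + IFNγ. Counted under that scaling, also added after the data were seen, 1, 1, 2 and 2 start-site regions were higher by 1.5-fold and 0, 0, 0 and 1 lower. The median of the 2 intronic regions was 1.91, 1.88, 1.39 and 2.51 under the median scaling. With the deposited fold it reversed to 0.99 for Oxali and 0.921 for Oxali + IFNγ; that value divides by the local background, and the cause was not tested. With all annotated transcripts only intron 5 is left in that class, at 2.39, 1.43, 1.43 and 2.76. Merging all deposited intervals left each median within the counting intervals of the regions behind it.

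Low pileups limit the Tap2 start and the Psmb8 exon 1 summits, among others. The intervals cover counting error only, and a pooled list can rest on 1 of its libraries.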
